A study of Arabidopsis thaliana with 4 samples.

Results

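ERD15 overexpression was read here in leaves that received no hormone: the array of mock-sprayed ERD15 overexpressor plants was set against the array of mock-sprayed plants carrying the empty vector pCP60, which are 2 of the 4 arrays of the series. All plants were Arabidopsis thaliana of the Col-0 background, germinated on medium with 50 µg/ml kanamycin, moved to soil and grown at 22 °C under 12 h of light, and their rosette leaves were taken at an age of 3 weeks. The mock spray was distilled water with 0.07% ethanol and the leaves were collected 90 min later. The other 2 arrays, 1 for each genotype, came from plants that received abscisic acid (ABA) at 100 µM with as much ethanol, and they share no array with the mock comparison. The overexpressor is a single transgenic line, line 52, and the promoter that drives its transgene is not given in the sources used here. Leaves of 3 plants were pooled for the overexpressor mock sample, whereas the labels of the vector mock sample do not mention pooling. The labels of the overexpressor also carry a term for a gene knock-out, which its titles and source names contradict. No probe set is paired with ERD15 (At2g41430), so the genotype labels could not be checked on the transgene and are taken as given. With 1 array a side there is no spread between replicates: every difference below is a difference between 2 pools of leaves, with no test.

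ERD15 is a small protein whose gene was first found among those induced early by dehydration. It binds poly(A)-binding protein, which coats the tails of messenger RNAs. ABA closes stomata and switches on dehydration genes, and ABA and salicylic acid, the hormone of defence against biotrophic pathogens, often act against each other in leaves. The gene groups below cover salicylic acid defence, protein folding, ABA and jasmonate targets, the cell wall and the chloroplast. They were chosen with earlier results of these data known and do not all follow from this background.

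Signals are the deposited array intensities brought to a common trimmed mean, and a signal under the floor of 13.3 was raised to it. A gene was measured if the mean signal of its probe set over the 4 arrays was 29.0 or more, which left 7322 genes. At a limit of 2-fold, which is used throughout, 359 genes were higher on overexpressor mock than on vector mock (4.9%) and 397 were lower (5.42%). After quantile normalization, which gives the 4 arrays the same distribution of signals, 410 were higher (5.6%) and 261 lower (3.57%). The split therefore moved from 47.5% higher to 61.1% higher with the scaling alone. Past this limit under both scalings were 350 higher genes (4.78%) and 248 lower genes (3.39%), and "the higher genes" and "the lower genes" below are these. The median difference of all genes, always given as the log2 of overexpressor over vector, was -0.09 as scaled and -0.06 after quantile normalization.

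The 2 mock arrays differ in ways that genes share. All 18 probe sets of the hybridization spike-ins, which are added in equal amounts to each sample, read lower on overexpressor mock, by log2 differences of -1.46 to -0.31. The 16 of them that passed the filter lay between -1.46 and -0.66. Of 38 genes with a mean signal of 3000 or more, 37 were lower there, with a median of -0.75 that became -0.03 after quantile normalization. The dimmest 733 genes had a median of -0.36, which became -0.10. A ribosomal RNA control (25S) read 1849 on vector mock, 264 on overexpressor mock, 2126 on vector ABA and 839 on overexpressor ABA. The part of these array differences in any single gene's value was not tested. Of the leaf mesophyll markers, RCA and LHCB4.2 are paired and bright on all arrays. The 3 paired root markers did not pass the filter, nor did the pollen marker AGL30 or the trichome marker TRY. The guard cell marker FMA read 59.2 on vector mock and 38.4 on overexpressor mock. In whole leaves, fewer cells of a type and less RNA per cell cannot be told apart.

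**Figure D1:**
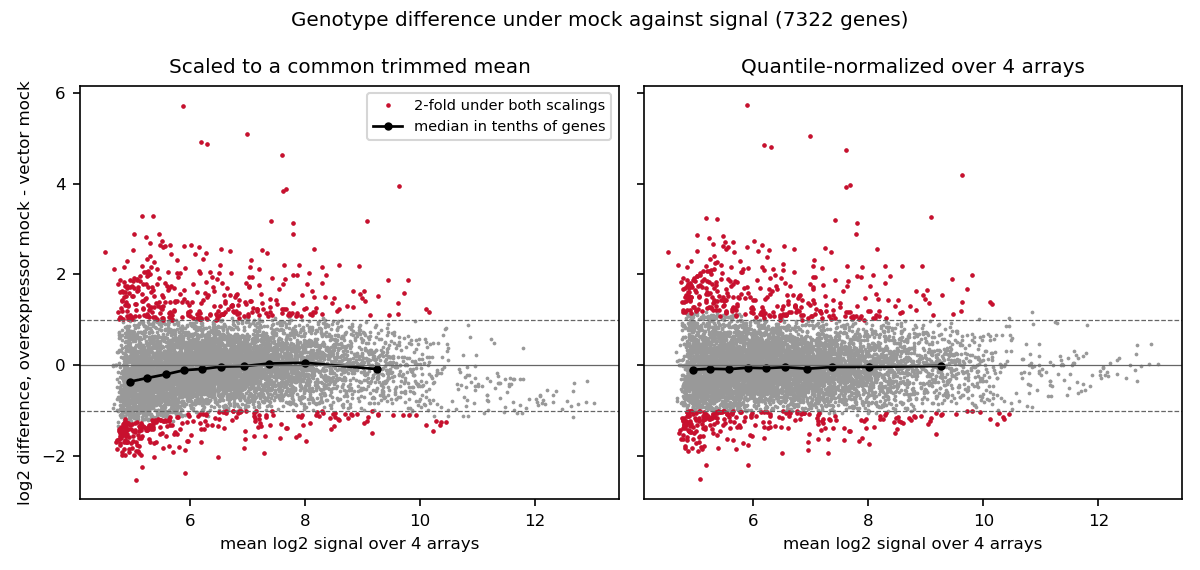
Log2 difference of overexpressor mock over vector mock (vertical) against mean log2 signal over the 4 arrays (horizontal), as scaled (left) and after quantile normalization (right); each point is 1 of 7322 genes, red points are past 2-fold under both scalings, dashed lines mark 2-fold and black points are medians of 10 classes of genes by signal. As scaled, the dimmest class has a median of -0.36 and the bright genes bend down; both bends are nearly gone on the right.

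The differences were lopsided in size. Of the 350 higher genes, 70 reached 4-fold and 13 reached 8-fold, whereas 5 of the 248 lower genes reached 4-fold and 0 reached 8-fold. The higher genes were dim on vector mock: their median signal was 34.1 there, 101 on overexpressor mock, 79.3 on vector ABA and 90.0 on overexpressor ABA. Vector mock was the lowest of the 4 arrays for 333 of the 350, and overexpressor mock the highest for 227, ties at the floor included. For the lower genes the median signals were 78.6 on vector mock, 30.1 on overexpressor mock, 53.0 on vector ABA and 55.4 on overexpressor ABA, with overexpressor mock lowest for 205 and vector mock highest for 186. These genes were chosen on the mock arrays, so that these ranks describe the lists and are not a finding about them. One mock array was at the floor for 59 of the higher and 21 of the lower genes, and their folds are lower limits, written "at least".

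The genes that stood highest above a measurable vector signal were of several kinds. AT5G55450, a lipid transfer-like protein, read 24.6 on vector mock, 609 on overexpressor mock, 267 on vector ABA and 357 on overexpressor ABA, which is 24.8-fold higher under mock. CHI, here the chitinase gene AT2G43570, read 168, 2575, 701 and 1328 on the same arrays in that order and was 15.4-fold higher. AT1G57630, which encodes a protein with a TIR domain, the signalling domain of many plant immune receptors, read 32.9, 486, 337 and 324 and was 14.8-fold higher. For these 3 genes vector mock alone was low, and both ABA arrays lay between the mock arrays. AT1G21520, of no role stated here, read 32.3, 464, 238 and 409, a 14.3-fold difference. AT5G48570 encodes ROF2, an immunophilin that binds HSP90 and is induced by heat. It read 162, 1460, 495 and 742 and was 9.02-fold higher. AT3G47480, an EF-hand calcium-binding protein, was 8.72-fold higher, at 60.7 on vector mock and 529 on overexpressor mock. The folds of AT3G28540 and AT1G43910, described with the AAA-type ATPases, were 8.99 and 7.41.

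The next genes of this kind were dimmer. AT1G72240 (6.31-fold) read 15.1 on vector mock and 94.9 on overexpressor mock, with vector ABA at 94.2, level with the overexpressor. AT5G57785 (6.28-fold) read 16.1 and 101 on the mock arrays. AT5G41400, a RING-type protein of the kind that attaches ubiquitin, read 33.2 on vector mock, 201 on overexpressor mock, 43.4 on vector ABA and 89.3 on overexpressor ABA. Its vector arrays were thus both below its overexpressor arrays. AT1G13470 was 5.92-fold higher under mock, at 29.9 and 177.

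The higher genes with a vector mock signal at the floor are given by their 6 largest differences. AT2G44240 was at the floor on vector mock, at 698 on overexpressor mock, at 13.9 on vector ABA and at 95.1 on overexpressor ABA, a difference of at least 52.6-fold under mock. AT5G19540 read 401 (mock) and 399 (ABA) in the overexpressor plants and stood at the floor with either spray in the vector plants, a difference of at least 30.3-fold (mock) and 30.1-fold (ABA). Its signals followed the genotype and not the spray. AT3G13610, the hydroxylase that makes the precursor of scopoletin, a coumarin of defence and iron uptake, read 391 on overexpressor mock, 78.2 on vector ABA and 95.3 on overexpressor ABA, at least 29.5-fold higher under mock. UGT76B1, AT5G17760 and AT3G28510 are described with their groups.

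Of all 13645 probe sets that passed the filter, 778 were higher (5.7%) and 710 lower (5.2%), and 6246 of them are paired with no gene, or with several, in the annotation used here. Of these 6246, 417 were higher (6.68%) and 310 lower (4.96%) as scaled. Under both scalings 393 of the 6246 were higher and 196 lower, against 4.78% and 3.39% of the 7322 measured genes. The probe set 259925_at, paired with no gene, read 77.9 on vector mock and 3959 on overexpressor mock, a 50.8-fold difference, and 251625_at read 72.5 and 3395, a 46.8-fold difference. Both were brighter than any named higher gene on overexpressor mock. At the other end 258589_at read 66.9 and 14.2, and 248377_at read 387 and 88.5.

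**Figure D2:**
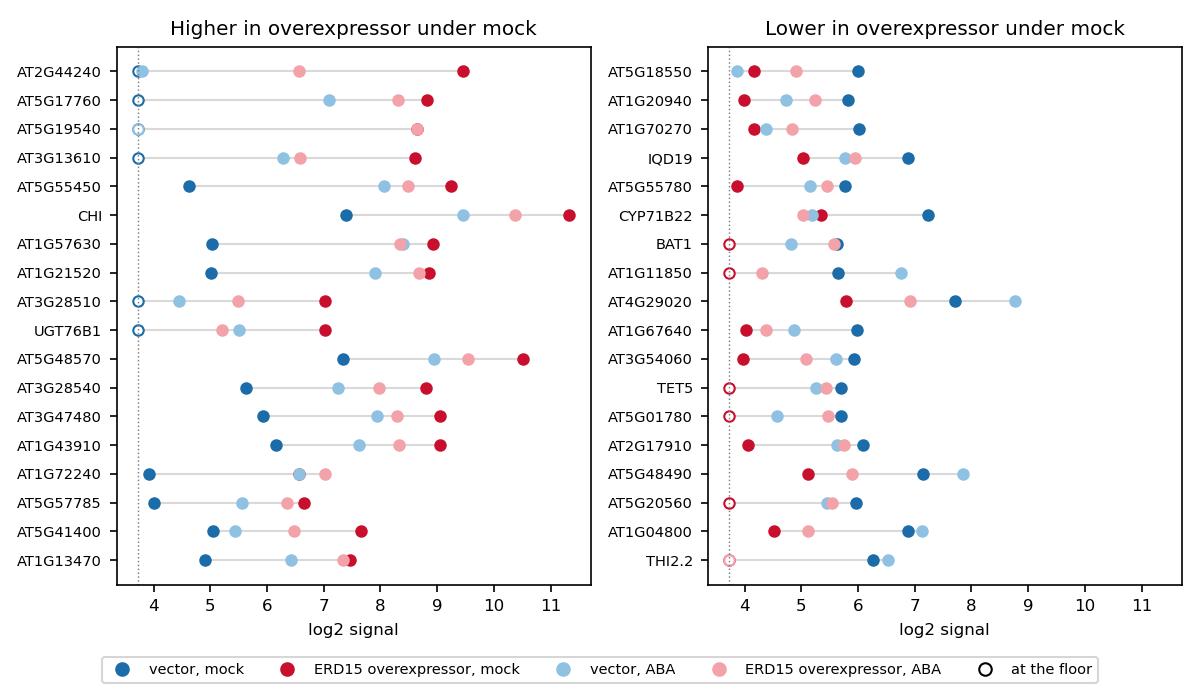
Log2 signal (horizontal) of the named genes with the largest differences under mock, higher in the overexpressor on the left and lower on the right, with 1 point per array; open circles are at the floor, marked by the dotted line. On the left the dark blue point of vector mock is the leftmost of its row and the ABA arrays mostly lie between the mock arrays, as for AT5G55450 at 24.6, 609, 267 and 357; AT5G19540 shows both vector arrays at the floor.

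Salicylic acid defence was represented by 4 measured genes, and all 4 were past 2-fold higher, against 4.9% of all genes, with a median of 2.46 (2.47 after quantile normalization) that counts UGT76B1 at its lower limit. Besides CHI, these were UGT76B1, which glucosylates the immune signals isoleucic acid and N-hydroxypipecolic acid, SAG101, a partner of EDS1 in TIR receptor signalling, and GRX480, a glutaredoxin that salicylic acid induces and that binds TGA factors. UGT76B1 was at the floor on vector mock and at 130 on overexpressor mock, at least 9.77-fold higher, with 45.2 on vector ABA and 37.0 on overexpressor ABA. SAG101 read 32.2 on vector mock, 99.0 on overexpressor mock, 84.2 on vector ABA and 87.5 on overexpressor ABA. GRX480 read 29.7, 65.0, 47.0 and 73.0 in that order. On the ABA arrays the group's median difference was 0.35, against 0.08 for all genes. None of the 4 was past 2-fold there as scaled (3.93% of all genes were higher and 2.13% lower). After quantile normalization the ABA difference of CHI was 1.02, just past 2-fold, against 0.92 as scaled. The list was chosen with earlier results of these data known, so its count describes these genes and is no independent evidence of their direction. The classical pathogenesis-related genes of this pathway are not among the 4 measured genes. Only 5 genes of the list were paired with a probe set in the annotation used here. Others of the pathway may lie among the probe sets paired with no gene.

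The AAA-type ATPases are ring-forming enzymes that use ATP to remodel other proteins. Of 7 measured, 4 were higher and none lower at 2-fold, against 4.9% and 5.42% of all genes, with a median of 2.89 under either scaling. AT5G17760 was at the floor on vector mock and read 451 on overexpressor mock, 136 on vector ABA and 316 on overexpressor ABA, at least 34-fold higher under mock. AT3G28540 read 49.6, 446, 153 and 251, and AT1G43910 read 71.2, 528, 198 and 320. AT3G28510 was at the floor on vector mock and at 130 on overexpressor mock, at least 9.82-fold higher. In all 4 genes vector mock was lowest and overexpressor mock highest, and the overexpressor was above the vector under ABA too, by 0.69 to 1.22. The other members had differences of 0.75 (AT5G17730), 0.12 (AT2G46620) and -0.57 (AT3G28590). The list was drawn up after its leading members had been seen, so its count is a description of the family and no independent evidence of its direction.

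Heat shock proteins and their partners keep other proteins folded. Of 12 measured, 6 were past 2-fold higher and 0 lower, against 4.9% and 5.42% of all genes. After quantile normalization 8 were past 2-fold higher, against 5.6% of all genes. Above 0 as scaled lay 11 of the 12, against 43.8% of all genes, with a median of 1.20. After ROF2, the largest difference was that of AT2G29500, a small heat shock protein gene, at 39.7 on vector mock, 182 on overexpressor mock, 78.7 on vector ABA and 123 on overexpressor ABA (4.59-fold). Hsp70-2 read 290, 1072, 998 and 765 and was 3.70-fold higher. The small heat shock protein gene AT5G51440 was 3.14-fold higher, the DNAJ gene AT2G20560 2.93-fold and Hop3, the co-chaperone that links HSP70 to HSP90, 2.69-fold. In these, too, vector mock was the lowest array. AT3G09440 (an HSP70) and AT5G37670 (a small heat shock protein) had differences of 0.89 and 0.97 as scaled and of 1.18 and 1.09 after quantile normalization. Cpn60beta4, a subunit of the chloroplast chaperonin, was the exception at -0.77. Under ABA the group's median was -0.20, against 0.08 for all genes, and 9 of 12 lay below 0, against 42.3% of all genes. This list, too, was chosen with earlier results of these data known, so its counts are a description.

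The endoplasmic reticulum folds and exports proteins, defence proteins included. All 13 measured genes of folding and secretion lay above 0 (12 after quantile normalization), against 43.8% of all genes (45.8%). Their median was 0.78, and 4 were past 2-fold higher, against 4.9% of all genes. AT3G60540, which encodes the small beta subunit of the SEC61 channel through which new proteins enter, read 104 on vector mock, 412 on overexpressor mock, 223 on vector ABA and 311 on overexpressor ABA (3.97-fold). ATERDJ3B, a lumenal DNAJ protein that works with BiP, read 473, 1432, 855 and 881 (3.03-fold). The calnexin gene AT5G07340 read 104, 307, 140 and 117 (2.96-fold), and CRT1b, a calreticulin, read 771, 1733, 1104 and 1131 (2.25-fold). Smaller differences of 0.88, 0.84 and 0.78 belonged to DER2.1, ATERDJ2B and DER1, and the smallest to ATERDJ2A at 0.09. Overexpressor mock was the highest array for 10 of the 13 genes, against 1721 of all 7322 genes. Vector mock was the lowest for 11 of the 13, against 1840 of the 7322. Under ABA the median was 0.06, against 0.08 for all genes. None of the 13 was past 2-fold there in either direction (6.06% of all genes were). This list was also added after the files had been seen.

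**Figure D3:**
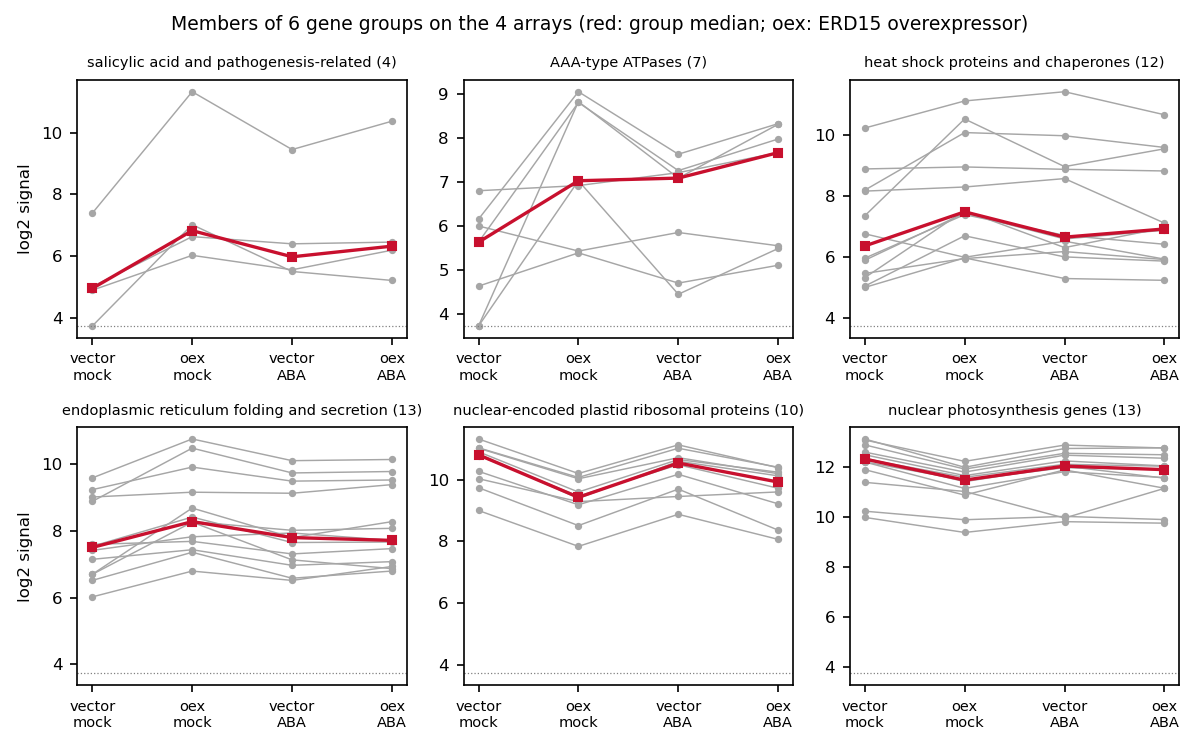
Log2 signal (vertical) of every measured member of 6 gene groups on the 4 arrays, with 1 grey line per gene and the group median in red; the dotted line is the floor and vertical ranges differ between rows. In the salicylic acid, AAA-type ATPase, heat shock and endoplasmic reticulum groups the median is lowest on vector mock; in the plastid ribosomal group the median is lower on both overexpressor arrays than on both vector arrays.

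Receptors, regulators and calcium genes were mixed. Of 34 measured TIR-domain genes, 2 were higher and 4 lower at 2-fold, against 4.9% and 5.42% of all genes. After quantile normalization 1 was lower, against 3.57% of all genes. The median as scaled was -0.03, so that AT1G57630 stood apart from its family. AT5G51630 read 26.4 on vector mock, 65.0 on overexpressor mock, 29.6 on vector ABA and 69.9 on overexpressor ABA, with folds of 2.46 under mock and 2.36 under ABA. AT5G18360 was the lowest, at 30.1 on vector mock and at the floor on overexpressor mock. Of 6 WRKY factors, WRKY53, a regulator of senescence and defence, was 2.11-fold higher, at 59.5 and 126 under mock and at 166 and 222 under ABA; the other 5 lay between -0.11 and 0.84. CML41, a calmodulin-like protein that helps close cell-to-cell channels during immunity, read 46.1 on vector mock and 188 on overexpressor mock (4.08-fold). GLR1.4, a glutamate receptor-like channel, had folds of 3.28 under mock and 2.2 under ABA. The median of the 11 calcium genes was nevertheless -0.13, and GLR3.6 was the lowest at -1.0 (-0.83 after quantile normalization). The ubiquitin ligase genes PUB23 and PUB22, closely related brakes on pattern-triggered immunity, had differences of 1.79 and -0.95 (1.91 and -0.78 after quantile normalization).

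Enzymes of small-molecule metabolism differed gene by gene. Of 27 UDP-glycosyltransferases, 4 were higher and 2 lower at 2-fold, against 4.9% and 5.42% of all genes. After quantile normalization 0 were lower, against 3.57% of all genes. The median as scaled was -0.09, the same as that of all genes. After UGT76B1 came UGT87A2 (81.4 on vector mock and 303 on overexpressor mock, 3.72-fold), GT72B1, which conjugates xenobiotics and lignin precursors (2.43-fold), and UGT74B1 of glucosinolate synthesis (2.23-fold). Most of the 11 cytochrome P450 genes were of the CYP71B subfamily. At 2-fold, 4 of the 11 were higher and 1 lower, against 4.9% and 5.42% of all genes. After quantile normalization 3 were higher, against 5.6% of all genes. The neighbours on chromosome 3 went opposite ways. CYP71B24 read 22.5 on vector mock and 124 on overexpressor mock, CYP71B23 read 58.3 and 223, and CYP71B22 read 151 and 40.5, with 36.6 on vector ABA and 32.8 on overexpressor ABA. CYP71B22 was therefore high on vector mock alone. In redox metabolism the glutaredoxin gene GRXC1 was 2.69-fold and the peroxidase gene PRX52 2.15-fold higher, while TAPX, the thylakoid ascorbate peroxidase, was 2.12-fold lower. The median of the 20 redox genes was -0.02.

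Growth, wall and turnover genes held a few differences of this size. Of the 3 measured pectin genes, PMEPCRF read 373 on vector mock, 1079 on overexpressor mock, 607 on vector ABA and 603 on overexpressor ABA (2.89-fold), and ATPMEPCRB read 82.9, 195, 576 and 444 (2.36-fold). Both encode pectin methylesterases, which stiffen or loosen the wall by removing methyl groups. PME61 had a difference of 0.87. Of the 17 expansin and xyloglucan-modifying genes, none was past 2-fold higher and 4 were lower, against 4.9% and 5.42% of all genes. After quantile normalization 2 were lower, against 3.57% of all genes. The median as scaled was -0.51. XTH32 read 218 on vector mock, 87.1 on overexpressor mock, 276 on vector ABA and 149 on overexpressor ABA, and XTH16 read 479, 231, 534 and 304. In both genes each overexpressor array was below both vector arrays. GID1B, a gibberellin receptor, read 17.8 on vector mock and 65.2 on vector ABA, against 67.1 and 47.4 in the overexpressor. Of 5 auxin response genes none reached 2-fold, with GH3.3 highest at 0.47 and GH3.9 lowest at -0.97. APG8A, which encodes an ATG8 protein of the autophagosome, was 2.39-fold higher, and 10 of the 12 senescence and autophagy genes lay above 0 (9 after quantile normalization), against 43.8% of all genes (45.8%), with a median of 0.32. BGLU25 was 3.94-fold higher and the vacuolar sugar carrier gene SWEET16 3.21-fold lower.

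**Figure D4:**
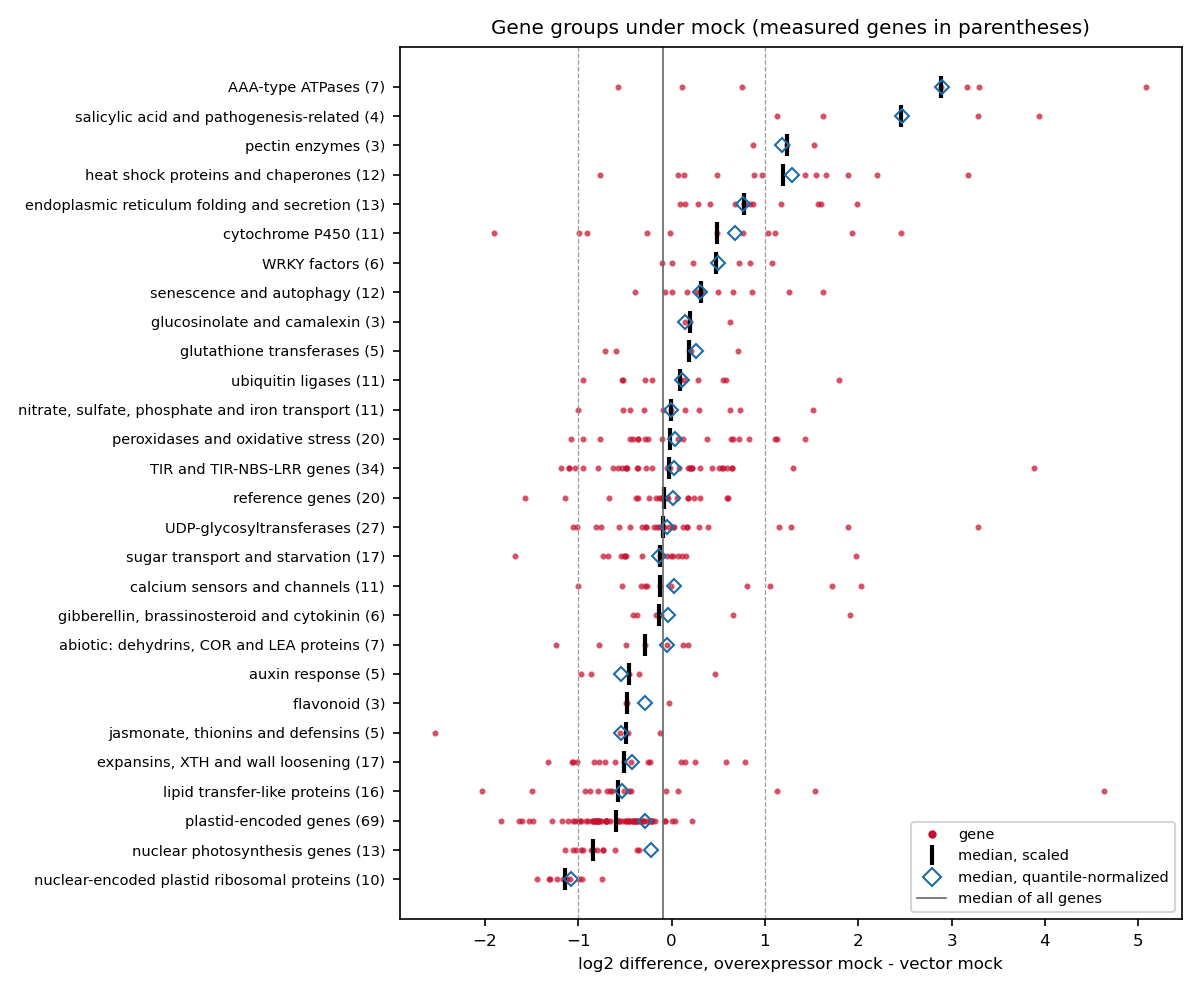
Log2 difference of overexpressor mock over vector mock (horizontal) for every measured gene of the groups with 3 or more measured genes, ordered by median; black bars are medians as scaled, open diamonds medians after quantile normalization, the grey line the median of all genes (-0.09) and dashed lines 2-fold. The AAA-type ATPases and the salicylic acid genes stand at medians of 2.89 and 2.46; the plastid ribosomal genes keep a median near -1.1 on both scales, while that of the nuclear photosynthesis genes goes from -0.84 to -0.22.

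Genes of dehydration and jasmonate responses were level or lower. Of 7 measured dehydrin, COR and LEA genes, none was past 2-fold higher and 1 was lower, against 4.9% and 5.42% of all genes. This was COR47, a dehydrin, which read 1365 on vector mock, 579 on overexpressor mock, 1924 on vector ABA and 1985 on overexpressor ABA. Its overexpressor mock array was below the other 3. COR15A, which guards chloroplast membranes, read 305 and 217 on the mock arrays and LTI30 76.9 and 83.6. No core gene of ABA perception was matched to a probe set in the annotation used here, which says nothing about the signals of these genes. Of 5 jasmonate, thionin and defensin genes, THI2.2, a thionin, read 76.6 on vector mock and 92.7 on vector ABA, and each overexpressor signal was at the floor, a difference of at least 5.78-fold (mock) and 6.99-fold (ABA). The defensin gene PDF1.2 read 52.2 on vector mock, 37.8 on overexpressor mock, 20.4 on vector ABA and 90.3 on overexpressor ABA. PDF1.2b, whose probe set can also match related genes, had nearly the same values, and the 2 are near copies.

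Lipid transfer-like proteins carry lipids in the wall and in systemic signalling, and their values ranged from -2.03 to 4.63. Of 16 measured, 3 were higher and 2 lower at 2-fold, against 4.9% and 5.42% of all genes, and the median was -0.57. Beside AT5G55450, AT4G12490 read 53.7 on vector mock, 156 on overexpressor mock, 54.0 on vector ABA and 189 on overexpressor ABA, with folds of 2.91 under mock and 3.50 under ABA. AT5G48490, a relative of DIR1, the carrier protein of systemic acquired resistance, read 141, 34.6, 230 and 59.2, with folds of 4.07 (mock) and 3.89 (ABA) in the lower direction. For AT4G12490 and AT5G48490 both overexpressor arrays lay on one side of both vector arrays. AT4G22490 was 2.82-fold lower under mock, at 61.0 and 21.6, but read 54.4 and 60 under ABA.

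Under a signal of 100 on both mock arrays were 143 of the 248 lower genes (57.7%) and 173 of the 350 higher genes (49.4%), against 51.3% of all measured genes. The gene furthest down among those above the floor was AT1G04800, a glycine-rich protein, at 118 on vector mock, 22.9 on overexpressor mock, 140 on vector ABA and 34.9 on overexpressor ABA (5.14-fold). AT4G29020, another glycine-rich protein, read 210, 55.2, 436 and 120 (3.81-fold). In AT1G04800 and AT4G29020, too, both overexpressor arrays were below both vector arrays. Many of the other named lower genes were lower on overexpressor mock than on either ABA array. Besides AT2G17910 and IQD19, these included AT3G54060, AT5G55780, AT1G20940, AT1G70270 and AT1G67640. AT2G17910, annotated as a pseudogene, read 67.7, 16.7, 49.6 and 53.8. IQD19, a calmodulin-binding protein, read 118, 32.5, 54.6 and 62.0 (3.63-fold). AT1G67640, an amino acid transporter-like gene, read 63.2, 16.2, 29.3 and 20.7, so that vector mock was the one high array. AT3G54060, AT5G55780, AT1G70270, AT1G20940 and AT5G18550 were 3.57-fold to 3.90-fold lower, none with an overexpressor mock signal above 18.0. AT5G20560, AT5G01780, TET5 and BAT1 were at the floor on overexpressor mock, with vector mock signals of 49.5 to 62.5, and AT1G11850 was at the floor there with 50.2 on vector mock, 109 on vector ABA and 19.7 on overexpressor ABA.

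Plastid ribosomes make the proteins that the plastid genome encodes, and most of their own proteins are encoded in the nucleus. All 10 measured nuclear genes for plastid ribosomal proteins were below 0, against 56.2% of all genes, and 7 were past 2-fold lower (6 after quantile normalization), against 5.42% of all genes. Their median was -1.14, and -1.08 after quantile normalization. AT1G64510, of the small subunit, read 1815 on vector mock, 670 on overexpressor mock, 1542 on vector ABA and 1112 on overexpressor ABA (2.71-fold). AT3G13120, also of the small subunit, read 1751, 706, 1427 and 842 (2.48-fold), and AT5G65220, of the large subunit, 1910, 774, 1603 and 1207 (2.47-fold). AT5G47190 read 852, 365, 826 and 329 and was lower by folds of 2.34 (mock) and 2.51 (ABA). The smallest difference was that of AT5G24490, a ribosome-associated factor, at -0.74. Their mean signals were 1000 to 3000 for 6 of them and 300 to 1000 for the other 4. All measured genes of the brighter class had a median of -0.38 (-0.14 after quantile normalization), and 9.77% of those 133 genes were past 2-fold lower (5.26% after quantile normalization). The 779 genes of the dimmer class had a median of 0.02, and 3.85% were past 2-fold lower. Under ABA 9 of the 10 plastid ribosomal genes were below 0, against 42.3% of all genes. Their median there was -0.68, against 0.08 for all genes. This list was added after the files had been seen, when the value of AT5G47190 was known.

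The genes of photosynthesis itself kept their direction across scalings, but the size of the difference did not hold. All 13 nuclear photosynthesis genes were below 0 as scaled, against 56.2% of all genes, with a median of -0.84. Past 2-fold lower were 3, against 5.42% of all genes. After quantile normalization all 13 were still below 0, against 53.9% of all genes. Their median was then -0.22 and none was past 2-fold lower, against 3.57% of all genes. RCA, rubisco activase, read 9006 on vector mock, 4094 on overexpressor mock, 6908 on vector ABA and 7032 on overexpressor ABA, a difference of -1.14 as scaled and -0.34 after quantile normalization. PSAN of photosystem I had -1.06 and -0.56, the Calvin cycle gene SBPASE -1.02 and -0.64, and LHCB4.1 of the light-harvesting antenna -0.86 and -0.02. On the same scale the spike-ins had a median of -1.03 and the genes of 3000 or more one of -0.75.

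Of the 69 genes of the plastid genome, 66 were below 0 as scaled and 51 after quantile normalization, against 56.2% and 53.9% of all genes, with medians of -0.59 and -0.28. Past 2-fold lower were 11 as scaled (5.42% of all genes) and 9 after quantile normalization (3.57%), and none was higher. These 9 were not the brightest: rpl36 read 219 on vector mock and 61.5 on overexpressor mock (3.55-fold), rps14 234 and 75.5 (3.10-fold), and rpl14 381 and 132 (2.88-fold). All 3 encode ribosomal proteins of the plastid. In rbcL, the large subunit of rubisco, the signals were 736 on vector mock, 263 on overexpressor mock, 863 on vector ABA and 669 on overexpressor ABA (2.80-fold), and in psbN they were 267, 88.2, 223 and 247 (3.03-fold). Plastid transcripts mostly lack the long poly(A) tails by which nuclear messengers are primed, and how much of them the labelling caught on each array is not given. Under ABA the differences of these 9 genes lay between -0.73 (ndhG) and 0.38 (rpl36), 7 of them below 0. The median of all 69 plastid genes there was -0.12, against 0.08 for all genes.

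Reference genes give a scale for these values. Of 20 measured actin, tubulin, ubiquitin-conjugating and GAPDH genes, none was past 2-fold higher and 2 were lower, against 4.9% and 5.42% of all genes. After quantile normalization 1 was lower, against 3.57% of all genes. The median as scaled was -0.08. ACT11, an actin gene known best from reproductive tissue, was the lowest, at 268 on vector mock, 90.3 on overexpressor mock, 174 on vector ABA and 145 on overexpressor ABA, and UBC30 the highest, at 0.61. Besides the auxin response genes, groups with no difference at 2-fold under either scaling were the glutathione transferases (5 genes, median 0.19), the glucosinolate and camalexin genes (3 genes, 0.19) and the flavonoid genes (3 genes, -0.48). GSTU27 and GSTU18 had the highest and lowest values of the first, 0.72 and -0.71, GTR2 and GTR1 of the second, 0.63 and 0.15, and UF3GT and 4CL8 of the third, -0.02 and -0.49. In the nitrate, sulfate, phosphate and iron transport group the median was 0.00 over 11 genes, with AT1G27040, a nitrate transporter family gene, at the floor on vector mock and at 37.9 on overexpressor mock.

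The ABA-sprayed plants give the same genotype contrast on separate arrays, and few of the mock differences were found there at 2-fold. Under ABA and both scalings 161 genes were past 2-fold higher in the overexpressor (2.2%) and 149 lower (2.03%). Higher under both sprays were 15 genes, 0.205% of all genes, which are 4.29% of the mock list and 9.32% of the ABA list. Lower under both were 22 genes, 0.3% of all genes, or 8.87% of the mock list and 14.8% of the ABA list. Of the 350 genes higher under mock, 234 (66.9%) were above 0 under ABA, against 57.7% of all genes. Their median under ABA was 0.20, against 0.08 for all genes, and 0.11 against 0.02 after quantile normalization. Of the 70 that reached 4-fold under mock, 55 were above 0 under ABA. Of the 248 lower genes, 140 (56.5%) were below 0 under ABA, against 42.3% of all genes, with a median of -0.12 (-0.24 after quantile normalization).

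**Figure D5:**
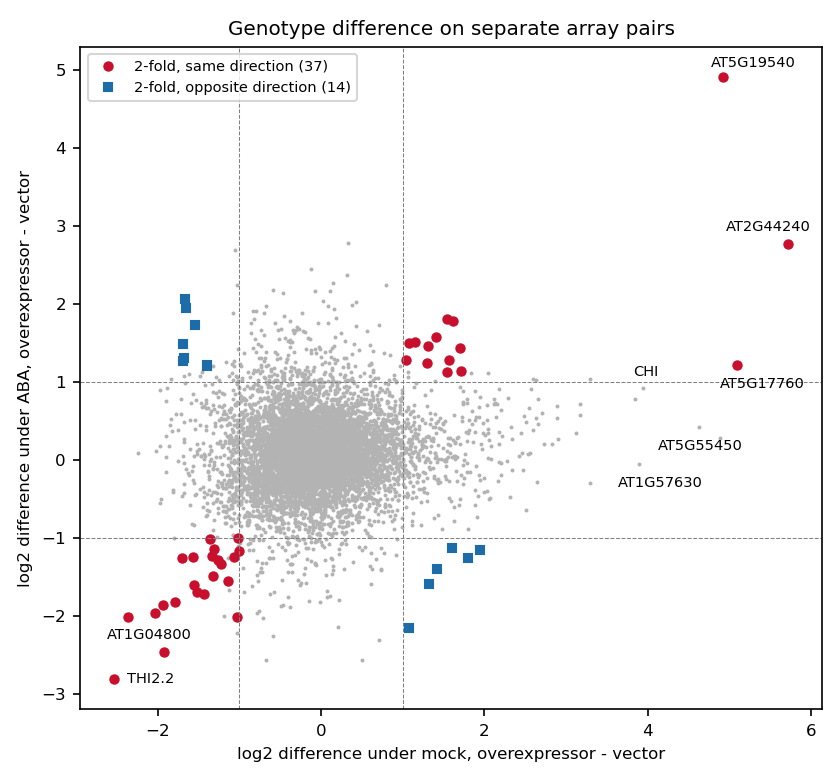
Log2 difference of overexpressor over vector under ABA (vertical) against that under mock (horizontal) for the 7322 genes; the 2 axes use separate arrays, red points are the 37 genes past 2-fold on the same side under both sprays and both scalings, blue squares the 14 on opposite sides. AT5G19540 lies near 4.9 on both axes, a lower limit on each, whereas AT5G55450, CHI and AT1G57630 lie far to the right and near or under 1 on the vertical axis.

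In these 37 genes the overexpressor stood on the same side of the vector within each spray. On the higher side these were, beside AT2G44240, AT5G17760, AT5G19540, GLR1.4, AT4G12490 and AT5G51630, for example AT2G25730 (27.4 on vector mock, 88.8 on overexpressor mock, 30.6 on vector ABA and 82.9 on overexpressor ABA), the carboxylesterase gene CXE20 (at the floor, 40.7, 17.6 and 60.3), the helicase-like gene AT3G02060 (19.6, 58.0, 24.7 and 59.9) and AT5G27930, a protein phosphatase of the 2C type (29.2, 85.0, 86.0 and 189). In the last of these vector ABA was as high as overexpressor mock. On the lower side AT1G13650 read 107 on vector mock, 31.1 on overexpressor mock, 80.9 on vector ABA and 23.0 on overexpressor ABA. AT5G55220, a trigger factor-type chaperone of the chloroplast, read 270, 91.3, 190 and 80.2. AT2G04570, a GDSL-type lipase, read 78.8, 26.9, 87.6 and 28.9, and AT5G13140 read 90.8, 31.8, 93.0 and 28.9. AT5G16240, a stearoyl-ACP desaturase, and AT1G73620, a thaumatin-like gene, were 2.70-fold and 3.25-fold lower under mock and at the floor on overexpressor ABA. The genotype and a difference between the single pools of plants cannot be told apart in any of these genes.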

How the data were processed

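RNA of rosette leaves was hybridized to 4 Affymetrix ATH1 arrays, 1 per group, and groups were taken from sample titles. The authors deposited 1 intensity per probe set, on a linear scale; MAS5 is the tool that the submitters' processing notes name, without a version. Of 22810 probe sets, 64 are controls, 13513 are paired with 1 gene in the platform annotation, 503 with several and 8730 with none. The TAIR10.1 RefSeq table matched 13436 of the single-gene probe sets and names 6270 of the 7322 measured genes by locus only, so their roles come from general knowledge of the families.

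Here every array was brought to a mean of 100 after trimming 2% of the non-control probe sets at each end, with the pooled 25th percentile as the floor before log2. Probe sets whose mean over the 4 arrays lay below the pooled 40th percentile were dropped. The brightest probe set stood for a gene. Differences were recomputed under 12 alternative settings, quantile normalization included (python 3.11.15, numpy 2.4.6, pandas 2.3.3, statsmodels 0.14.6), and the steps were tested on simulated data. No error or test could be computed, since the number of arrays, 1 per group, limits the precision.

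Named genes are, among those at least 2-fold changed under both scalings, the 12 highest and 12 lowest above the floor on both mock arrays, the 6 highest and 6 lowest at the floor on 1, up to 20 with the same and up to 10 with the opposite direction under ABA, and, of each list with 3 or more measured genes, its extremes and up to 6 changed members. Other genes given with values were chosen after their values were seen. The members, lists and rules were chosen with earlier results of these data known. After the files had been seen, 449 loci were added to 9 of the 41 lists from family knowledge, false name matches were removed, and the endoplasmic reticulum and plastid ribosomal lists were added. Of the 41 lists, 28 had 3 or more measured genes, 5 had 1 or 2 and 8 had none.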

Additional observations from a re-analysis of the deposited data

Results flagged for a closer look

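In 10 named genes the 2 overexpressor arrays lay on opposite sides of their vector arrays, past 2-fold under each spray and both scalings. With 1 array per group the difference between the sprays was not tested. The genotype difference under ABA minus that under mock, in log2, was -3.09 for AT4G01870, -3.06 for AT1G06000, a flavonol rhamnosyltransferase gene, -2.73 for AT5G23760 and -2.82 for AT5G56980, which were higher in the overexpressor under mock and lower under ABA. It was 3.18 for AT1G17545, 2.97 for AT1G63240, 2.99 for AT3G49230, 3.73 for ATIM, a TIMELESS-like gene, 3.60 for AT2G25565 and 3.28 for AT3G03230, in which the signs were the reverse. AT4G01870 read 33.9 on vector mock, 130 on overexpressor mock, 156 on vector ABA and 70.4 on overexpressor ABA. In AT1G06000, AT1G17545, AT1G63240, ATIM and AT2G25565 1 array was at the floor, so that the size given is a lower limit. In all, 14 genes met these limits, 6 of them higher and 8 lower under mock, and 7 of the 14 were at the floor on some array.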

How the results depend on the processing

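No paired analysis was possible because each group has 1 array and the differences come from no test. The count of lower genes was 397 as scaled, 261 after quantile normalization over the 4 arrays, 209 after a loess on signal, 232 with the floor at the 40th percentile, 78 with an offset of 32 and no floor, 793 with no filter and 128 with the filter at the 60th percentile. That of higher genes was 359, and 166 with the offset and 209 with the filter at the 60th percentile. Of the genes at least 2-fold changed, 47.5% were higher as scaled, against 61.1% and 60.7% after quantile normalization over the 4 or the 2 mock arrays, 68.9% after loess, 68.0% with the offset, 62.0% with the stricter filter and 38.4% with no filter. Without the filter 1342 probe sets were lower, and 89 genes had the same direction under both sprays. The nuclear photosynthesis median of -0.84 became -0.22 and -0.23 with quantile normalization over the 4 or the 2 mock arrays and -0.24 with loess. The AAA-type ATPase median of 2.89 was 2.16 with the higher floor and 2.21 with the offset, where that of the salicylic acid genes was 1.52. With the filter at the 60th percentile, which leaves fewer genes, the cytochrome P450 median was 1.07, against 0.48 with the reported filter, and that of the calcium genes 1.05, against -0.13. The causes were not tested. Of the 135 named genes, 108 were past 2-fold under both scalings. Under at least 1 setting that measured them, 46 of the 135 lost a 2-fold call, most of them with the offset (41) or the higher floor (21). None was past 2-fold in the opposite direction. With the filter at the 60th percentile 54 named genes were not measured, and 9 were not with the filter on the mock arrays. MAS5 detection calls were not used here, and which dim genes lie above background is therefore unknown.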

Other observations

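The higher and the lower genes were spread over the 5 chromosomes. The share of genes higher under both scalings lay between 4.37% (chromosome 5) and 5.26% (chromosome 2), and that of lower genes between 2.49% (chromosome 2) and 4.03% (chromosome 1). On chromosome 3 the neighbouring AAA-type ATPase genes AT3G28510 and AT3G28540 had differences of at least 3.30 and of 3.17, and AT3G28590 one of -0.57.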
